A study of Homo sapiens with 12 samples.

Results

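Interferon-stimulated genes are the genes that cells switch on when interferon reaches them. A fixed list of 42 of these genes was followed here through RNA-seq of HGC-27, a human gastric cancer cell line. The members are a list of names set with earlier results of these data known, and all 42 were found among the 20345 genes of the expression table. Of these, 29 reached an average of 1 FPKM across the 12 libraries and were tested, and the other 13 fell below that limit. FPKM divides the fragments of a gene by transcript length in kilobases and by how many fragments the library had in all, so levels of different genes are compared per length.

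The 12 libraries fall into 4 groups of 3. WT untreated (libraries 1, 2 and 3) and WT with GLUP (14, 15 and 16) are HGC-27 cells whose labels carry no genotype. TEAD4KO untreated (1, 2 and 3) and TEAD4KO with GLUP (14, 15 and 16) are HGC-27 cells labelled as lacking TEAD4, a DNA-binding partner of YAP and TAZ in the Hippo pathway. GLUP is a cyclized peptide designed to hold TEAD4 molecules together in a repressive state, and the series asks what it does to transcription and whether TEAD4 is needed for that. The untreated cells had no peptide, and all 4 groups shared the same line and medium. How the knockout was made, and whether it is 1 clone, is not given in the sources used here. No label says whether the 3 libraries of a group came from separate cultures, so p-values measure only the spread between these libraries, which may be technical.

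Type I and type III interferons bind receptors at the cell surface and activate the JAK1 and TYK2 kinases, which phosphorylate STAT proteins such as STAT2. With IRF9, STAT2 is part of a factor that binds the interferon response element in promoters. The genes it switches on restrict viruses at every step, from entry (the IFITM proteins) through sensing and decay of viral RNA (the OAS enzymes, EIF2AK2, ADAR) to release of particles (BST2). Many also have a baseline level in cells that no interferon has reached.

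The response element was read from the sequence, because the factor with STAT2 and IRF9 binds it. RefSeq promoter windows on GRCh38.p14, from 250 bases before to 50 bases after the start of transcription, were at hand for 34 of the 42 members. The core of the element, GAAANNGAAA on either strand, was present in 22 of these 34 members (64.7%), against 4.38% of the 27305 genes with a window. Another planned motif, the GAS element (TTCNNNGAA), was in 9 of 34 (26.5%) against 9.38%. CATTCC, the part of the M-CAT site that TEAD proteins recognize, was in 7 of 34 (20.6%) against 16.7%. A match of letters is a description of the window and not a bound site, and the peptide's target was not mapped in these libraries. IFIT2, IFITM2, MX2, OAS2, OASL, IRF7, USP18 and TRIM22 had no window.

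Stretches that hold the core are shown for the 8 members that passed a test in any comparison and had a core that begins before the start of transcription, with each core in capitals. They lie at chr1:1013369-1013414 (ISG15, plus strand), chr1:27672261-27672363 (IFI6, minus strand), chr1:78649756-78649788 (IFI44, plus strand), chr11:313985-314043 (IFITM1, plus strand), chr11:320871-320927 (IFITM3, minus strand), chr3:122680795-122680834 (PARP14, plus strand), chr19:17405730-17405775 (BST2, minus strand) and chr2:37156977-37157001 (EIF2AK2, minus strand). All are written from 5′ to 3′ on the strand of the gene.
ISG15: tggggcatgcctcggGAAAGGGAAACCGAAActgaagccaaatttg
IFI6: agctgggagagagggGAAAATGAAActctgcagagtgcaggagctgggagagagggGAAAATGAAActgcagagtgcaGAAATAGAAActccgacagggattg
IFI44: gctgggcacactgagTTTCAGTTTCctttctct
IFITM1: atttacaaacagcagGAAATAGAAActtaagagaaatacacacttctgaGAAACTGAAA
IFITM3: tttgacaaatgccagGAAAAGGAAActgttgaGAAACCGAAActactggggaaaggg
PARP14: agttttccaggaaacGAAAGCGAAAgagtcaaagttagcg
BST2: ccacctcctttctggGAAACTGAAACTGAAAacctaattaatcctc
EIF2AK2: ggcggagtccaagggGAAAACGAAA
In ISG15 and BST2 the capitals are 2 overlapping cores, IFI6 holds 3 cores, and in IFI44 the core lies on the opposite strand and so reads in reverse. IFITM1 and IFITM3 hold 2 separate cores each. The EIF2AK2 core and the second IFITM1 core run across the start of transcription. STAT2, SAMHD1, ADAR and IFI35, which also passed a test, had a window with no core.

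The labels were checked first. TEAD4 stood at 25.8, 24.4 and 25.0 FPKM in WT untreated, 23.7, 22.9 and 23.8 in WT with GLUP, 30.1, 27.7 and 27.2 in TEAD4KO untreated and 27.8, 29.4 and 26.0 in TEAD4KO with GLUP. The transcript was thus higher in the libraries labelled TEAD4KO, by 0.20 ± 0.04 (log2 fold change ± SE, limma adjusted p = 0.00752), which goes against the direction a loss of transcript would have. With the dependence on GC content and on transcript length taken out of every library, the difference was 0.04 ± 0.04 and did not pass. A knockout that leaves the transcript in place would not show here, so the groups are called by their labels throughout. Total FPKM ran from 375361 to 423757 and depth is unknown. Libraries TEAD4KO untreated 1 and TEAD4KO with GLUP 16 stood apart from the rest of their groups on the first principal component (39.7% of the variance), on the side of the WT libraries, and results are given with and without both. Among the epithelial markers of the labelled gastric cancer cells, KRT8 lay at 3.78 to 9.13 FPKM and CDH1 at 2.04 to 3.68, while EPCAM (0.0281 to 0.169), KRT18 (0.0559 to 0.290) and KRT19 (listed at 0 in 9 of 12) were near 0, and the mesenchymal marker VIM lay at 1238 to 1704. Of the fibroblast markers COL1A1 lay at 155 to 304, DCN at 55.1 to 77.6, COL1A2 at 4.93 to 9.80 and PDGFRB at 0.820 to 1.27. The T cell marker CD3E and the endothelial marker CDH5 were listed at 0 in all 12, VWF was at most 0.0439, PTPRC at most 0.276 and CD14 at most 0.703. In bulk RNA, fewer cells of a type and less RNA per cell cannot be told apart.

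The 42 genes spanned almost the whole range of expression. The IFITM proteins, which sit in membranes and block the entry of enveloped viruses, led the list, with IFITM3 at a mean of 142 FPKM (121 to 176, higher than 97.1% of all genes tested), IFITM2 at 66.2 (53.0 to 80.3) and IFITM1 at 27.2 (18.6 to 37.5). ADAR, which edits adenosine to inosine in double-stranded RNA, lay between IFITM2 and IFITM1 at 54.8 (44.3 to 64.5). LGALS3BP, a secreted galectin-binding glycoprotein, followed IFITM1 at 16.3 (14 to 19.2), and EIF2AK2, the kinase PKR that halts translation on double-stranded RNA, lay next to it at 15.4 (11.7 to 18.6).

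**Figure D1:**
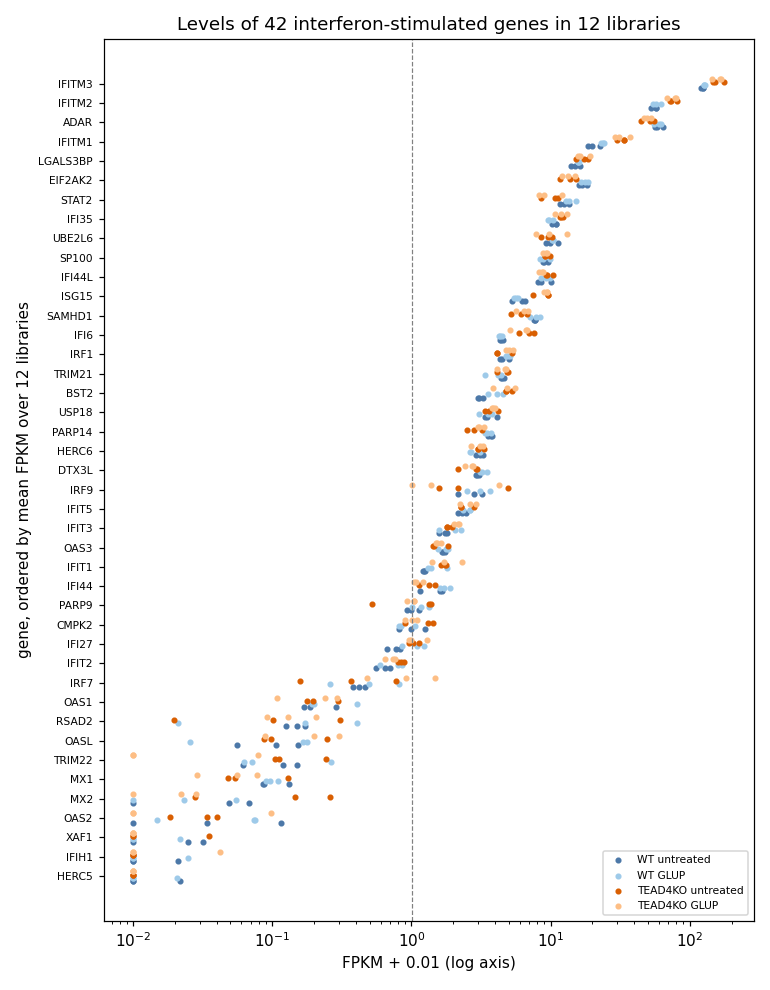
FPKM + 0.01 (log axis) of the 42 interferon-stimulated genes, 1 point per library, ordered by mean and coloured by group, with the limit for testing as a dashed line at a mean of 1 FPKM. IFITM3 is highest at a mean of 142 FPKM, and the 3 lowest genes (XAF1, IFIH1, HERC5) are listed at 0 in 8, 9 and 10 of 12 libraries.

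The 13 members below the limit for testing included the MX genes and 3 of the OAS family. MX1 and MX2, GTPases that trap incoming viral cores, had means of 0.0730 and 0.0492 FPKM. RSAD2 (viperin) had 0.148, OAS1 0.219, OASL 0.132 and OAS2 0.0343. IFIH1, the RNA sensor MDA5, was listed at 0 in 9 libraries, HERC5, the ligase that attaches ISG15 to proteins, in 10, and XAF1, an antagonist of the apoptosis inhibitor XIAP, in 8. TRIM22 had a mean of 0.0972 and IRF7, the factor that amplifies interferon production, ranged from 0.148 to 1.47 with a mean of 0.573. IFIT2 (0.725) and IFI27 (0.974) were the closest below the limit of 1 FPKM, and CMPK2 (1.03) and PARP9 (1.06) the closest above it. No comparison was made for these 13 genes.

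The middle of the list held components of the ISG15 system and of signalling. STAT2 had a mean of 11.6 FPKM (8.25 to 15.3), IFI35 11.2 (9.59 to 13.2) and UBE2L6, the conjugating enzyme for ISG15, 10.1 (7.80 to 13.2). SP100, a component of PML bodies, lay at 9.17 (8.32 to 9.97) and IFI44L at 9.09 (8.04 to 10.3). ISG15, the ubiquitin-like modifier itself, lay at 7.45 (5.24 to 9.64), SAMHD1, which degrades deoxynucleotides, at 6.94 (5.21 to 8.36) and IFI6 at 5.45 (4.25 to 7.58). IRF1 (4.77), TRIM21 (4.41), BST2 (4.21), USP18 (3.67), PARP14 (3.29), HERC6 (2.99) and DTX3L (2.88) followed. IRF9 (2.74), IFIT5 (2.46), IFIT3 (1.90), OAS3 (1.63), IFIT1 (1.55) and IFI44 (1.40) were the lowest of the tested members above CMPK2 and PARP9. In the whole order of the 42 genes, the ranges of neighbours over all libraries were apart only between IFITM3 and IFITM2 and between ADAR and IFITM1. The rest of the order is by mean, with ranges that overlap. A gene could still lie above its neighbour within each library, as IFITM1 did above LGALS3BP. PARP9 and DTX3L overlap on opposite strands, as do CMPK2 and RSAD2, and whether strand was used in counting is not given in the sources used here, so reads of each pair may not be told apart.

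The genes upstream were read from a list of 41 other pathway genes, of which 40 matched the table. Of the 6 ligands in that list, IFNE, IFNK, IFNL2 and IFNL3 were listed at 0 in all 12 libraries, IFNL1 in 11 and IFNB1 in 6, the highest IFNB1 value being 0.192 FPKM. The receptor chains IFNAR1 (8.12 to 11.7), IFNAR2 (4.23 to 5.72), IFNGR1 (25.9 to 32.0) and IFNGR2 (18.5 to 30.4) were present, as were JAK1 (15.9 to 19.8) and TYK2 (26.8 to 47.0). IFNLR1, the chain particular to type III interferon, had a mean of 0.866. Among the sensors, RIGI had a mean of 1.10 FPKM and CGAS, which reads DNA in the cytosol, 0.0360, while STING1 lay at 16.8 to 21.4 and MAVS at 11.5 to 15.3. CXCL10, a chemokine that marks strong interferon signalling, had a mean of 0.138.

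The first comparison asked what GLUP did to these genes in WT cells. By limma with Benjamini-Hochberg adjustment, 0 of the 29 members passed an adjusted p of 0.05, against 0.00891% of all 11225 genes. The log2 fold changes ran from -0.15 to 0.30, with 19 members higher and 10 lower and a median of 0.05, against 0.01 for all genes. At an unadjusted p under 0.05 there were 2 members, against 3.43% of all genes. BST2, the tether that holds budding virus on the cell, had 3.01, 3.02 and 3.23 FPKM untreated and 3.52, 4.12 and 4.51 with GLUP. Its 3 treated libraries lay above the untreated ones, and the difference was 0.30 ± 0.11 (unadjusted p = 0.0182, adjusted p = 0.999 by limma). IFITM1 had 22.6, 19.9 and 18.6 FPKM untreated and 23.6, 24.1 and 22.8 with GLUP, also without overlap, a difference of 0.20 ± 0.09 (unadjusted p = 0.0472, adjusted p = 0.999 by limma). The groups did not overlap for 6 of the 29 members (5 higher, 1 lower), against 17.3% of all genes. Besides BST2 and IFITM1, these were IFIT1 (0.16 ± 0.12), DTX3L (0.11 ± 0.10), IFITM3 (0.05 ± 0.08) and, in the lower direction, TRIM21 (-0.15 ± 0.10).

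In the libraries labelled TEAD4KO, GLUP likewise gave 0 calls, against 0.0445% of all genes, and 0 members at an unadjusted p under 0.05, against 6.38%. The log2 fold changes ran from -0.31 to 0.14 with a median of -0.01, against -0.02 for all genes. BST2 differed by -0.06 ± 0.11 and IFITM1 by -0.01 ± 0.09. The widest value belonged to IRF9 (-0.31 ± 0.33), the DNA-binding partner of STAT2, whose level scattered most. IRF9 had 4.97, 1.57 and 2.15 FPKM in TEAD4KO untreated and 1.00, 1.38 and 4.28 in TEAD4KO with GLUP, the high value in each group being the library that stood apart. Only IFI44L (-0.16 ± 0.09) and IFIT3 (0.14 ± 0.10) had groups that did not overlap, 2 of 29 against 6.83% of all genes.

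The difference between the responses was tested as an interaction. No member passed (0 of 29, against 0.00891% of all genes), and 1 member, BST2, had an unadjusted p under 0.05, against 2.53%. For BST2 the response to GLUP in the TEAD4KO libraries was lower than in WT, with a difference of -0.36 ± 0.16 (unadjusted p = 0.0405, adjusted p = 1.0 by limma). Averaged over both genotypes, GLUP gave 0 calls, against 0.258%, and 0 members at an unadjusted p under 0.05, against 7.14%. The largest of these averaged changes was 0.13 ± 0.07 for IFIT3 in either direction.

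**Figure D2:**
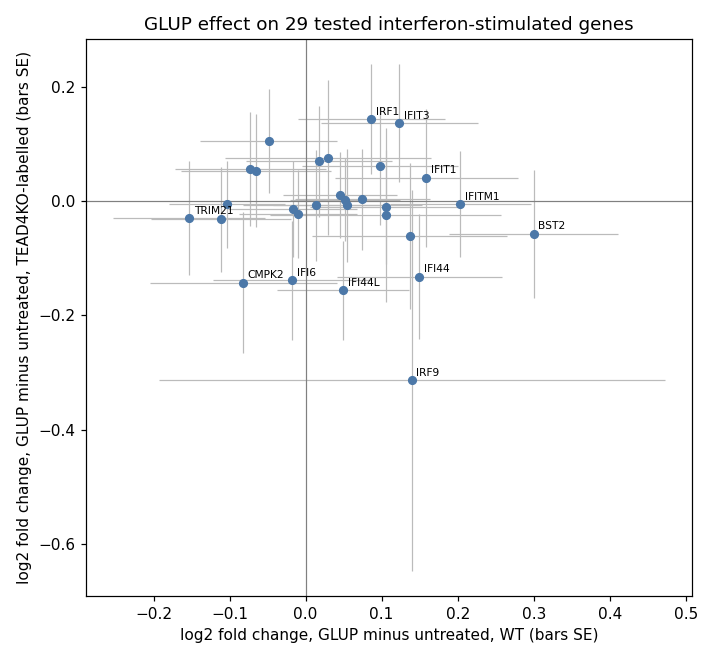
Log2 fold change of GLUP against untreated in WT (horizontal) and in the libraries labelled TEAD4KO (vertical) for the 29 tested interferon-stimulated genes, bars are SE. The values lie between -0.15 and 0.30 on the horizontal axis and between -0.31 and 0.14 on the vertical, with BST2 farthest right and IRF9 lowest.

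The next comparisons set the libraries labelled TEAD4KO against WT. Without GLUP, 6 of 29 members passed and all 6 were higher in TEAD4KO, against a background of 5.42% of all genes called (4.92% higher, 0.499% lower). These were ISG15, IFI6, BST2 and the 3 IFITM genes. Their transcripts are all under 1500 bases, and 17.0% of all genes of that length passed as higher. With GLUP, 7 of 29 passed, 5 higher and 2 lower, against 5.84% (4.91% higher, 0.935% lower). The 5 were ISG15, IFI6 and the 3 IFITM genes again, and the 2 lower genes were STAT2 and EIF2AK2. Of all genes under 1500 bases, 18.8% passed as higher with GLUP. The libraries differ from those of the untreated comparison, but the cells carry the same genotype labels and enter the same fit. The second comparison is thus no independent repeat. Averaged over both treatments, 13 passed, 7 higher and 6 lower, against 20.0% (14.4% higher, 5.67% lower). The median over all 29 was 0.04, against 0.01 for all genes, and no member reached a 2-fold difference in any comparison.

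The IFITM genes lie next to each other on chromosome 11 (GRCh37, IFITM2 at 303655 to 309397, IFITM1 at 310041 to 315272, IFITM3 at 319676 to 329475) and all 3 were higher in each treatment. IFITM1 had 22.6, 19.9 and 18.6 FPKM in WT untreated and 30.1, 33.6 and 33.9 in TEAD4KO untreated, and 23.6, 24.1 and 22.8 against 37.5, 31.0 and 29.1 with GLUP. Every TEAD4KO library lay above every WT library, and the difference was 0.65 ± 0.09 untreated (adjusted p = 0.00316 by limma) and 0.44 ± 0.09 with GLUP (adjusted p = 0.0145 by limma). IFITM2 had 57.6, 57.1 and 53.0 against 72.3, 80.3 and 73.5 untreated, and 54.8, 61.7 and 57.5 against 80.1, 78.1 and 68.6 with GLUP. The groups did not overlap here either, and the differences were 0.42 ± 0.07 and 0.37 ± 0.07 (adjusted p = 0.00622 and 0.00942 by limma). IFITM3 had 125, 124 and 121 against 151, 176 and 146 untreated, and 129, 127 and 126 against 168, 164 and 144 with GLUP. It too was higher in every TEAD4KO library, by 0.35 ± 0.08 and 0.31 ± 0.08 (adjusted p = 0.0184 and 0.0295 by limma). Reads can be split between these genes. In 50-base stretches, 38.9% of the IFITM1 transcript is found in transcripts of other genes (35.5% in a gene known here only as ENSG00000288681 and 12.3% in IFITM3), 12.02% of IFITM2 (7.21% in the same gene and 5.33% in IFITM3) and 2.87% of IFITM3, so the IFITM values are uncertain where the counting divided such reads.

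ISG15, at chr1:936518-949920 on GRCh37, and IFITM1 had the highest differences over both treatments among the members tested, 0.56 ± 0.07 and 0.55 ± 0.07, which are within their errors of each other. With GC content and transcript length corrected for, IFITM1 lay above ISG15 (0.37 against 0.28). ISG15 stood at 6.23, 5.24 and 6.57 FPKM in WT untreated and 9.56, 9.64 and 7.50 in TEAD4KO untreated, and at 5.46, 5.81 and 5.68 in WT with GLUP and 9.36, 8.90 and 9.47 in TEAD4KO with GLUP. The lowest TEAD4KO library lay above the highest WT library, and the difference was 0.49 ± 0.10 untreated (adjusted p = 0.0133), 0.62 ± 0.10 with GLUP (adjusted p = 0.00339) and 0.56 ± 0.07 over both (adjusted p = 0.000219, all by limma). Among the other members of the ISG15 and ubiquitin system, HERC5 and TRIM22 were too low to be tested. UBE2L6, USP18 and HERC6 did not pass in any comparison with all 12 libraries and no correction. UBE2L6 differed by -0.06 ± 0.10 over both treatments, USP18, which removes ISG15, by 0.08 ± 0.07 and HERC6 by 0.04 ± 0.07, and TRIM21 (0.10 ± 0.07) and DTX3L (-0.18 ± 0.07) did not pass either. Of the USP18 transcript, 27.0% of 50-base stretches are shared with other genes, 26.4% with USP41, so its value is uncertain in the same way.

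IFI6, a mitochondrial and ER membrane protein that opposes apoptosis and flavivirus replication, had 4.57, 4.30 and 4.40 FPKM in WT untreated and 7.58, 7.03 and 5.96 in TEAD4KO untreated. With GLUP the values were 4.50, 4.25 and 4.32 against 6.63, 5.09 and 6.72. The groups did not overlap, and the differences were 0.53 ± 0.10 and 0.41 ± 0.10 (adjusted p = 0.0128 and 0.0373 by limma). Of the IFI6 transcript, 19.3% of 50-base stretches are shared with LINC02574. BST2 had 3.01, 3.02 and 3.23 FPKM in WT untreated against 5.25, 4.78 and 4.80 in TEAD4KO untreated, a clear gap of 0.54 ± 0.11 (adjusted p = 0.0152 by limma). With GLUP it had 3.52, 4.12 and 4.51 against 5.57, 3.87 and 4.82, where the groups overlapped and the difference of 0.18 ± 0.11 did not pass (adjusted p = 0.336 by limma). IFI35, a leucine zipper protein, had 10.9, 11.01 and 10.3 against 11.9, 12.3 and 11.7 FPKM untreated and 9.59, 10.4 and 9.80 against 13.2, 10.8 and 11.9 with GLUP. The groups were apart in each treatment but overlapped when pooled, and only the average passed, at 0.19 ± 0.05 (adjusted p = 0.0236 by limma). Of the 5 most abundant members, LGALS3BP was the 1 that did not pass in any comparison. It had 14.8, 16.4 and 14 against 18.5, 17.4 and 15.2 FPKM untreated and 15.8, 16.1 and 15.8 against 19.2, 16.3 and 15.8 with GLUP, which overlap, and a difference over both of 0.13 ± 0.06 (adjusted p = 0.161 by limma).

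The 6 lower members over both treatments were STAT2, EIF2AK2, ADAR, SAMHD1, PARP14 and IFI44. STAT2, the subunit that gives the interferon-activated factor its transactivating domain, had 12.5, 11.6 and 13.5 FPKM in WT untreated and 10.7, 8.57 and 11.3 in TEAD4KO untreated, and with GLUP 12.9, 13.5 and 15.3 against 9.002, 8.25 and 12.1. The groups were apart within each treatment, and the difference was -0.28 ± 0.13 untreated (adjusted p = 0.222), -0.48 ± 0.13 with GLUP (adjusted p = 0.0446) and -0.38 ± 0.09 over both (adjusted p = 0.0111, all by limma). Its partner IRF9 differed by -0.25 ± 0.24 over both treatments and -0.48 ± 0.33 with GLUP and did not pass in either. Without the 2 libraries that stood apart the IRF9 differences were -0.64 ± 0.11 and -0.90 ± 0.16 and both passed (adjusted p = 0.000908 and 0.00217 by limma), and with GLUP it also passed without TEAD4KO with GLUP 16 alone (-0.90 ± 0.27, adjusted p = 0.0367 by limma) and with array weights (-0.71 ± 0.23, adjusted p = 0.0421 by limma). The IRF9 value thus depended on these libraries, and 47.4% of the 50-base stretches of its transcript are shared with other genes, 45.9% with a gene known here only as ENSG00000259529.

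EIF2AK2 had 16.9, 15.9 and 18.1 FPKM in WT untreated against 15.2, 11.7 and 13.9 in TEAD4KO untreated, and 18.6, 16.6 and 17.8 against 12.1, 13.3 and 15.1 with GLUP. All 6 TEAD4KO libraries lay below all 6 WT libraries, with a difference of -0.33 ± 0.07 over both treatments (adjusted p = 0.00522 by limma). ADAR had 56.6, 58.0 and 64.5 against 55.6, 44.3 and 51.6 untreated, and 59.6, 55.6 and 61.6 against 49.6, 46.9 and 53.0 with GLUP. Its groups were apart within each treatment, and the difference over both was -0.24 ± 0.06 (adjusted p = 0.0138 by limma). The other tested member of the RNA sensing group, OAS3, differed by -0.08 ± 0.07 and did not pass.

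SAMHD1 had 7.61, 7.66 and 7.66 FPKM against 6.08, 5.21 and 6.73 untreated, and 7.82, 8.36 and 7.12 against 6.45, 5.66 and 6.91 with GLUP. No TEAD4KO library reached the lowest WT library, and the difference over both was -0.28 ± 0.07 (adjusted p = 0.0118 by limma). PARP14, an ADP-ribosyl transferase, had 3.80, 3.71 and 3.52 against 2.83, 2.50 and 3.22 untreated, and 3.73, 3.36 and 3.47 against 3.31, 3.01 and 3.07 with GLUP, again without overlap, a difference of -0.21 ± 0.06 (adjusted p = 0.037 by limma). IFI44 was a low gene, with 1.66, 1.15 and 1.58 against 1.34, 1.46 and 1.12 untreated and 1.70, 1.60 and 1.87 against 1.03, 1.06 and 1.20 with GLUP. It overlapped untreated and did not with GLUP, and the average of -0.23 ± 0.08 (adjusted p = 0.0481 by limma) lay close to the threshold. Over both treatments, 8 of the 29 members had groups that did not overlap (5 higher, 3 lower), against 9.39% of all genes.

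**Figure D3:**
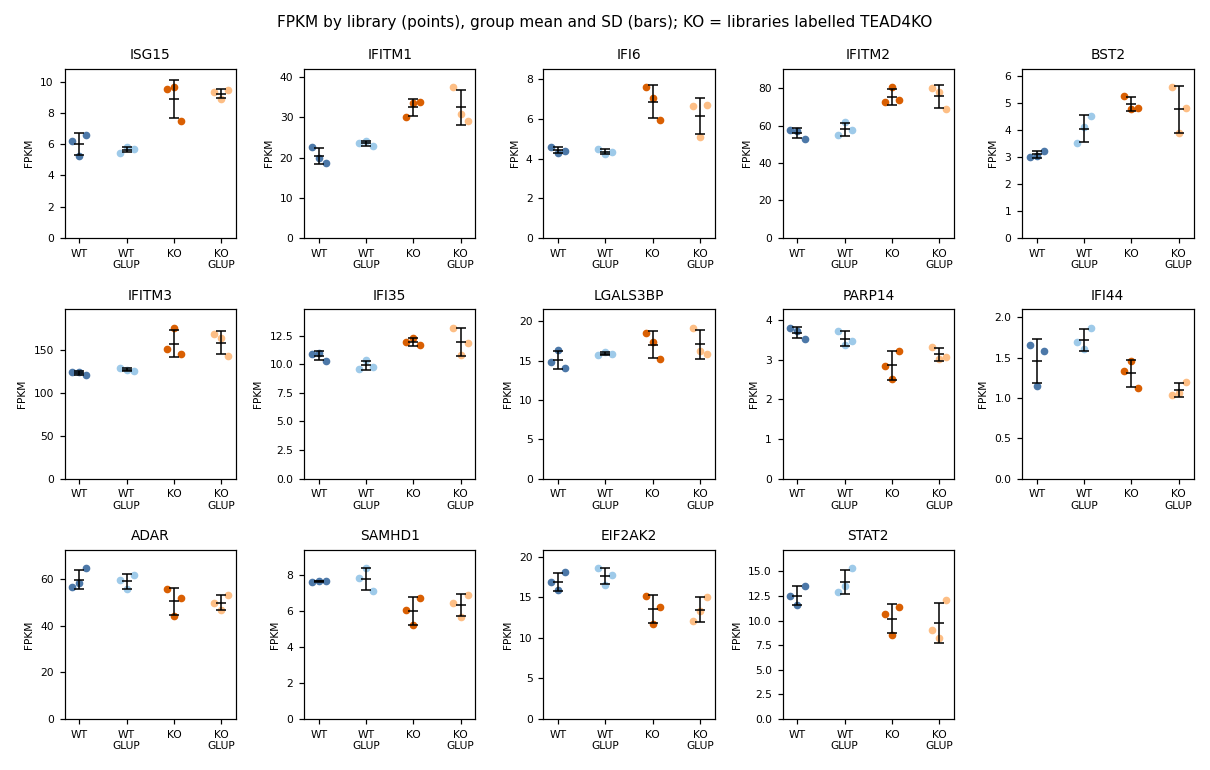
FPKM in each of the 12 libraries for the 14 interferon-stimulated genes that passed a test in any comparison or were among the 5 most abundant, ordered by their difference, with group mean and SD (n = 3 per group) and axes that start at 0. ISG15, the 3 IFITM genes and IFI6 lie higher in all 6 libraries labelled TEAD4KO, and EIF2AK2, SAMHD1 and PARP14 lie lower in all 6.

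The members that passed in none of the comparisons with all 12 libraries and no correction made up the other 16 of 29. Of these, IFIT1, IRF9 and DTX3L passed under an alternative, DTX3L without the 2 libraries that stood apart (-0.21 ± 0.08 over both treatments, adjusted p = 0.0445 by limma). The 16 include 3 genes of the IFIT family, whose proteins bind the 5′ end of foreign RNA. IFIT1 had means ± SD of 1.22 ± 0.0175 and 1.49 ± 0.266 FPKM (n = 3) in WT without and with GLUP and 1.70 ± 0.0657 and 1.80 ± 0.446 (n = 3) in TEAD4KO, a difference of 0.22 ± 0.09 over both (adjusted p = 0.0805 by limma), and it passed with quantile normalization (0.26 ± 0.07, adjusted p = 0.0175 by limma) and without TEAD4KO with GLUP 15 (0.27 ± 0.08, adjusted p = 0.0399 by limma). IFIT3 (0.08 ± 0.07) and IFIT5 (0.04 ± 0.07) were nearer to 0. IFI44L, the neighbour of IFI44 on chromosome 1, differed by 0.01 ± 0.06, IRF1 by 0.00 ± 0.07, SP100 by 0.03 ± 0.05, CMPK2 by 0.10 ± 0.09 and PARP9 by -0.05 ± 0.11. All of these differences are over both treatments.

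The direction followed the length of the transcripts, and so did that of all genes. Over 11077 genes, the log2 fold change of TEAD4KO against WT had a Spearman correlation with transcript length of -0.51 untreated, -0.47 with GLUP and -0.53 over both, given as a description over genes that share the same libraries. With GC content the correlation was 0.30 untreated, 0.20 with GLUP and 0.26 over both, so the direction cannot be tied to length alone. By length classes chosen after the values were seen, the 7 members under 1500 bases (ISG15, IFI6, IFI35, BST2 and the IFITM genes) were exactly the 7 that passed as higher over both treatments, with a median of 0.40, while all 1191 genes of that length had a median of 0.18 and 43.2% of them passed as higher. Of the 15 members over 3500 bases, 5 passed as lower, with a class median of -0.05, and all 5668 genes of that length had a median of -0.06 and 9.47% passed as lower. IFI44, with a transcript of 1682 bases, was the 1 lower member outside that class.

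**Figure D4:**
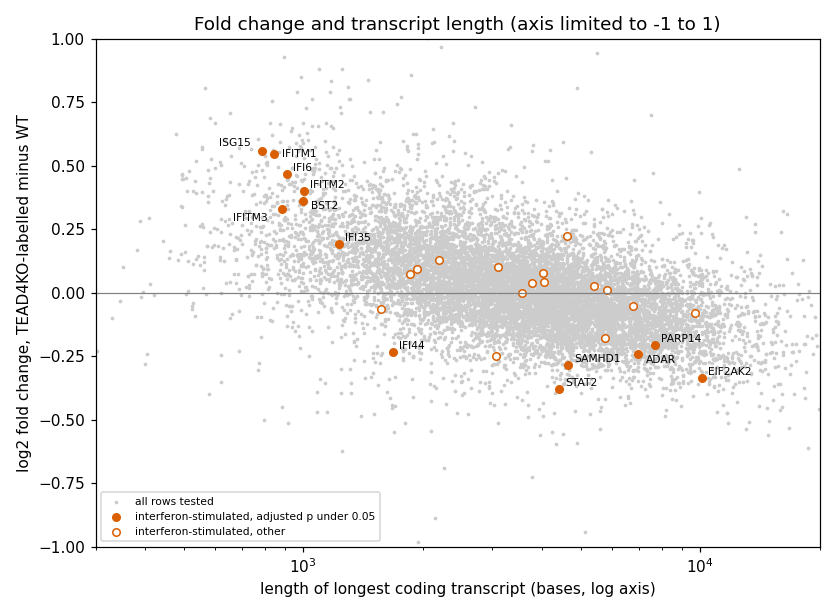
Log2 fold change of libraries labelled TEAD4KO against WT over both treatments (vertical, limited to -1 to 1) against the length of the longest coding transcript (horizontal, log axis), for all genes with a length in grey and the interferon-stimulated genes in orange, filled where the adjusted p was under 0.05. The 7 members under 1500 bases lie at 0.19 to 0.56, and the 6 lower ones at 1682 bases or more.

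Each library was therefore also corrected for its own trend with GC content and transcript length. Untreated, 2 members then passed (IFITM1 at 0.46 ± 0.08 and IFITM2 at 0.23 ± 0.05), against 1.79% of all genes. With GLUP, 4 passed (ISG15 at 0.37 ± 0.09, IFITM2 at 0.21 ± 0.05, IFI44 at -0.49 ± 0.12 and STAT2 at -0.41 ± 0.10), against 3.85%, and with the correction and the replicate number as a block 1 passed (STAT2). Over both treatments 10 passed, 5 higher (IFITM1, IFIT1, IFI6, ISG15 and IFITM2) and 5 lower (IFI44, STAT2, SAMHD1, EIF2AK2 and ADAR), against 13.9%. IFITM3 fell from 0.33 to 0.09 and IFI35 from 0.19 to 0.02, and these, BST2 (0.18 ± 0.08) and PARP14 (-0.10 ± 0.06) no longer passed, while IFIT1 (0.26 ± 0.08) now did. ISG15 went from 0.56 to 0.28 and kept its call.

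**Figure D5:**
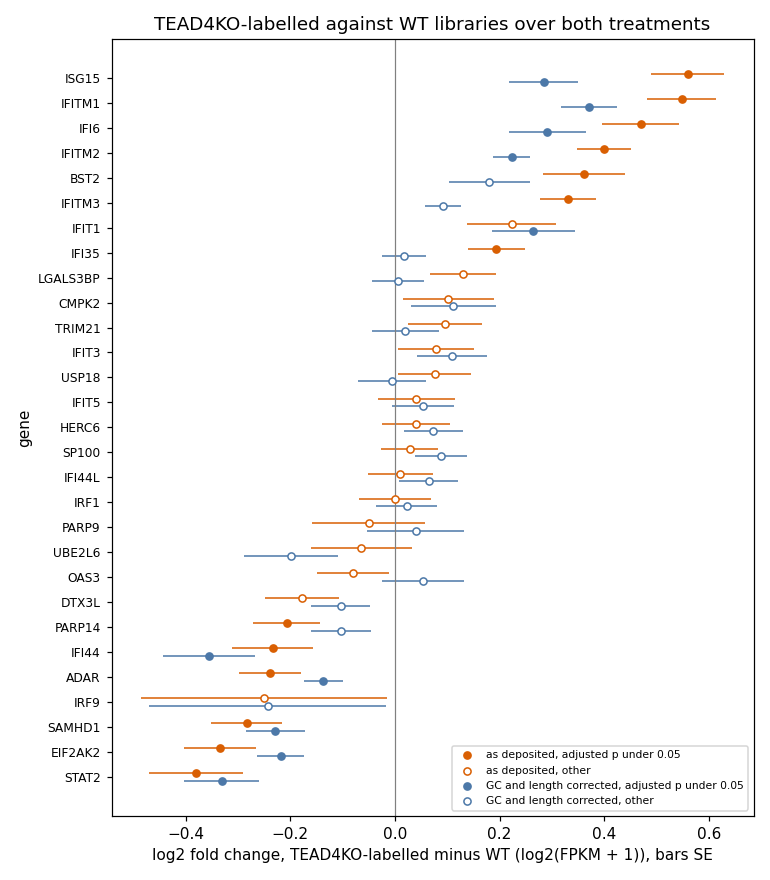
Log2 fold change (SE bars) of libraries labelled TEAD4KO against WT over both treatments for the 29 tested interferon-stimulated genes, before (orange) and after (blue) correction for GC content and length, filled where the adjusted p was under 0.05. ISG15, IFITM1, IFI6 and IFITM2 stay above 0 and STAT2, EIF2AK2, SAMHD1, ADAR and IFI44 below it after correction, while IFITM3 and IFI35 move close to 0.

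Without the 2 libraries that stood apart, 9 members passed untreated (6 higher, 3 lower), 12 with GLUP (6 higher, 6 lower) and 15 over both treatments (7 higher, 8 lower), and 0 of the 26 calls of the 3 comparisons were lost. The share of all genes called rose too, to 19.9%, 27.8% and 41.4%, so the higher counts are not particular to the members. The 2 libraries were picked because they lay toward the WT libraries, so leaving them out tends to widen the difference. The kept calls are therefore no test of it. Single libraries mattered within a treatment, for all genes as well as for the members. When 1 library was left out, the share of all genes called ran from 1.06% to 10.57% untreated, from 1.75% to 17.39% with GLUP and from 12.37% to 29.58% over both treatments. Untreated, 3 members passed without WT untreated 2 or without WT untreated 3. With GLUP, 1 member passed without WT with GLUP 14, without WT with GLUP 16 or without TEAD4KO with GLUP 14, 3 without WT with GLUP 15, and 4 without TEAD4KO with GLUP 15 or without any 1 of the WT untreated libraries. Gene by gene, IFITM1 and IFITM2 untreated and ISG15 with GLUP passed in all 12 fits that left out 1 library. Untreated, ISG15 did not pass without WT untreated 2 (0.41) or TEAD4KO untreated 2 (0.44), IFI6 without WT untreated 3 (0.53), BST2 without any 1 of the WT untreated libraries (0.53 to 0.57) and IFITM3 without any 1 of these or TEAD4KO untreated 2 (0.27 to 0.36). With GLUP, IFITM1 (0.34 to 0.45) and IFITM2 (0.33 to 0.37) did not pass without WT with GLUP 14, WT with GLUP 16 or TEAD4KO with GLUP 14, and IFI6, IFITM3, STAT2 and EIF2AK2 were lost in 8, 5, 8 and 9 of the 12 fits, each without any 1 of the WT libraries with GLUP among them.

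Over both treatments the number stayed between 10 and 13, and 10 members passed in all 12 fits. IFI35 did not pass without WT untreated 3, WT with GLUP 14, WT with GLUP 16 or TEAD4KO with GLUP 14 (0.16 to 0.19). PARP14 did not pass without any 1 of the 6 WT libraries, TEAD4KO untreated 2 or TEAD4KO with GLUP 15 (-0.22 to -0.17). IFI44 did not pass without any 1 of WT untreated 1 and 3, the 3 WT libraries with GLUP, TEAD4KO untreated 3 and TEAD4KO with GLUP 14 and 15 (-0.25 to -0.20).

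Of the 28 other pathway genes that could be tested, 3 passed over both treatments, against 20.0% of all genes, and 0 passed within either treatment. IFNGR2, a chain of the interferon gamma receptor, was higher by 0.27 ± 0.06 (adjusted p = 0.00746 by limma) and SOCS1, an inhibitor of JAK kinases, by 0.45 ± 0.15 (adjusted p = 0.0481 by limma). ZC3HAV1, which targets viral RNA with CpG for decay, was lower, with a difference of -0.19 ± 0.05 (adjusted p = 0.0174 by limma). None of these 3 passed after the correction for GC content and length, and IL10RB, a shared receptor chain of the IL-10 family and type III interferon, then did. Under GLUP, 0 of the 28 passed in WT, in TEAD4KO or over both genotypes by limma, with 4, 1 and 4 at an unadjusted p under 0.05, against 3.43%, 6.38% and 7.14% of all genes, and with the correction STAT3 passed over both genotypes at 0.24 ± 0.04. The median over these 28 genes was 0.00 in TEAD4KO against WT over both treatments, next to 0.04 for the 29 members.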

How the data were processed

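RNA was sequenced from 12 HGC-27 libraries in 4 groups of 3, taken from the sample titles. The authors deposited FPKM values, 1 column per library and 1 row per gene, with replicates not pooled. The submitters' processing notes name hg19, HISAT2, Cufflinks and RSEM, with versions and roles not given in the sources used here. FPKM are not read counts, and relative depth could not be recovered, since the most common ratio between libraries held at most 1.31% of genes under 0.1 FPKM. Sequencing depth is thus unknown and precision rests on replicates.

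Values were analysed as log2(FPKM + 1) for 11225 genes with a mean of at least 1 FPKM. One fit of all 4 groups was made with limma 3.58.1 in R 4.3.3 (eBayes with intensity trend), two-sided, with Benjamini-Hochberg adjustment over all genes in each of 7 comparisons, and a call at an adjusted p under 0.05. A fold change is on the log2(FPKM + 1) scale, which understates changes of low genes. Permuting 3 against 3 libraries was not done, because the smallest p it allows is 0.1. Symbols were found for 96.5% of rows. Gene positions, transcript lengths and their GC share were read from GENCODE 44 as lifted to GRCh37, and promoters from RefSeq. The correction for GC content and length used splines with 5 degrees of freedom per library. The steps were tested on simulated data with planted 2-fold changes, a size that no member reached. Recovery of smaller differences was not tested. Values of 2 genes outside the members are not reported here. Values per library are given for members that passed in any comparison and the 5 most abundant, 14 in all.

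The 42 members, the lists and the tests were chosen with earlier results of these data known. Length classes and shared 50-base stretches were chosen after seeing the values, the latter in place of protein identity. Alternatives were another pseudocount, filter, scaling, variance prior, library weights, groups in the fit, a fold limit, the correction, the replicate block and leaving out libraries. Replicate numbers in the titles were checked through the correlation of deviations from group means between genotypes. Numbers 14, 15 and 16 gave 0.106, 0.152 and 0.336 and were read as paired, and numbers 1, 2 and 3 gave -0.0569, 0.203 and -0.0149 and were not. The main fit nevertheless used no pairing, so its p-values with GLUP leave out any pairing of 14, 15 and 16. The replicate block, an alternative, paired every number, with 1, 2 and 3 included. Unlike numbers gave 0.116 for WT 15 with TEAD4KO 14 and 0.134 for WT 14 with TEAD4KO 15. Numbers 14 and 15 were thus not told apart, and their pairing rests on the titles. Number 16 with an unlike number gave -0.245 to -0.185. Untreated, WT 3 with TEAD4KO 1 gave 0.182. With the replicate block, 7 members passed in TEAD4KO against WT with GLUP, as without it.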

Additional observations from a re-analysis of the deposited data

How the results depend on the processing

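No member passed for GLUP in either genotype, for GLUP over both or for the interaction (0 in every alternative). With a fold change over 2 also required, 0 members passed in each comparison of TEAD4KO with WT. Untreated, where 6 passed, the GC and length correction left 2 and the same with the replicate block 1, and leaving out 1 library gave 3 to 8. With GLUP, where 7 passed, 3 passed with no filter on low values, 12 with array weights, 4 with only the groups compared, 4 with the GC and length correction, 1 with the replicate block and that correction, 12 without TEAD4KO untreated 1 and TEAD4KO with GLUP 16 (added after seeing the data), and 1 to 9 when 1 library was left out. Over both treatments, 13 passed, with 10 to 13 when 1 library was left out and 11 with the replicate block. No called difference changed sign. Over all alternatives, 494 values of called members kept their call and 113 did not, and the cause was not tested. Of 26 calls, 12 were lost with the correction and 2 with the replicate block. The replicate block alone lost IFI44 and PARP14 over both treatments and changed no count of calls by over 1.5 times. The block also paired the untreated libraries, which share only a number. Its results untreated and over both treatments rest on that pairing. GLUP and untreated groups share no numbers, so no paired fit was possible there. Depth is unknown, so low values cannot be given a counting error.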
